A study of Mus musculus with 4 samples.

Results

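Transcripts of 7 transcription factor genes, Bhlhe40, Bhlhe41, Zbtb32, Zbtb20, Zbtb16, Arid3a and Arid3b, were compared between wild-type peritoneal B1a cells and wild-type splenic follicular B2 cells. The genes were listed by symbol, as factors linked to B1a identity or as their close paralogs, and all 7 were found among the 20599 gene symbols to which the 21970 deposited entries were summed. Membership was set by symbol. The list was drawn up with earlier results of these data known, so it is not independent evidence. RNA-Seq libraries came from B1a cells (n = 2) sorted as CD23- IgM+ CD5+ cells from peritoneal washes and from B2 cells (n = 2) sorted from spleen as follicular cells with high IgD, low IgM and CD21. The labels describe every mouse as untreated wild-type C57BL/6 at 4 weeks of age, whereas the methods give a greater age for the mice that yielded B2 cells and call the mice of both groups littermates of Dnmt3a-deficient animals. Elsewhere the methods name C57BL/6J mice as controls, so whether the control mice carried a floxed or Cre allele is not settled by the sources used here, and Dnmt3a-deficient libraries were not used here. Differences of cell type therefore coincide with differences of tissue and, if the methods are followed, of age, and these cannot be told apart.

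B1a cells are self-renewing B lymphocytes of the body cavities that arise largely from fetal precursors and secrete natural antibody, whereas follicular B2 cells recirculate and enter germinal centers. BHLHE40 and BHLHE41 are closely related basic helix-loop-helix repressors that bind the E-box CACGTG and also take part in the negative feedback of the circadian clock, and BHLHE41 is known for its role in maintaining B1a cells. ZBTB proteins join a BTB domain, which recruits corepressors, to DNA-binding zinc fingers, and ARID3 proteins bind AT-rich DNA, ARID3A being known as a factor of the immunoglobulin heavy chain locus and of B1 cell development.

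The libraries held between 11032732 and 18588623 counts, and 3 counts, taken as the floor of detection, equal between 0.157 and 0.270 CPM (counts scaled to a common library total with TMM factors), which covers counting error only because reads carry no molecular identifiers and several can stem from 1 molecule. The B1a replicates were farther apart than the B2 replicates, with a median absolute log2 difference between replicates of 0.54 against 0.22 over 12078 tested genes. The B cell markers Cd79a, Cd79b, Ms4a1 and Pax5 were far above the floor in every library. Cd79a, a signaling chain of the antigen receptor, was at 1756 and 1661 CPM in B1a and 1207 and 1151 CPM in B2. Their levels differed between the groups in both directions. Cd79a and Ms4a1 were higher in B1a (edgeR adjusted p = 0.0349 and 0.0299), Pax5 was lower (adjusted p = 0.01003), and Cd79b did not pass the test (adjusted p = 0.1245). Of the 5 markers of the sort, Itgam and Spn rose in B1a and Fcer2a (CD23) and Cr2 (CD21) fell, while Cd5 was at 15.9 and 22.4 CPM in B1a and 5.47 and 2.25 CPM in B2 and did not pass the test (edgeR adjusted p = 0.146). In bulk samples, fewer cells that express a gene and less RNA per cell cannot be told apart.

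The windows of 250 bases before the annotated starts are shown for the 3 members that passed the test between cell types, so that the reader can see which of them holds the E-box bound by the BHLHE40 and BHLHE41 proteins. RefSeq promoter windows (build GRCm38.p6) were at hand for 4 of the 7 members, and Bhlhe40, Zbtb16 and Arid3a had none in the table. The window of Bhlhe41 lies at chr6:145865421-145865670 on the reverse strand, those of 2 Zbtb32 starts at chr7:30598910-30599159 and chr7:30592943-30593192 on the reverse strand within the annotated span of the gene, and that of a Zbtb20 start inside the long gene at chr16:43247034-43247283 on the forward strand. Each is written 5' to 3' on the strand of the gene, and capitals mark CACGTG, which reads the same on both strands.
Bhlhe41: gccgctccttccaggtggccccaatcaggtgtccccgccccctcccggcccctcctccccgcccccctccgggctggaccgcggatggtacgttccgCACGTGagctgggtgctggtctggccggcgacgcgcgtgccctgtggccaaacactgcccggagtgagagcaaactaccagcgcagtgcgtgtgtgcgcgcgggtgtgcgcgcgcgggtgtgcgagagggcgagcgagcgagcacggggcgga
Zbtb32 upstream start: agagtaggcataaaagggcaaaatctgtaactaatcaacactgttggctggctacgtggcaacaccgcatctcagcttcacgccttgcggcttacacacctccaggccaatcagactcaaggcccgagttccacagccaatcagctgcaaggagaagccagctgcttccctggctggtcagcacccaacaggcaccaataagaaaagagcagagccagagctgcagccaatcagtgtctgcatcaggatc
Zbtb32 downstream start: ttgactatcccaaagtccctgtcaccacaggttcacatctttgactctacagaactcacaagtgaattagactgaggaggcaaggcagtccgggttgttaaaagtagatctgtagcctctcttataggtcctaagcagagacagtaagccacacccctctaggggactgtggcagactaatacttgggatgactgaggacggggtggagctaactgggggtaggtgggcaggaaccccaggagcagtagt
Zbtb20 internal start: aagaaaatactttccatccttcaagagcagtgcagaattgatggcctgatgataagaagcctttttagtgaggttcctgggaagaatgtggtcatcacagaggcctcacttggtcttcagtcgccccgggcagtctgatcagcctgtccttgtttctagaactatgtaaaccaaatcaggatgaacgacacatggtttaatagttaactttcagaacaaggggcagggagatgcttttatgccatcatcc
The Bhlhe41 window held 1 E-box, beginning 153 bases before the start, and had a GC content of 73.6% against a median of 52.4% over all windows. The Zbtb32, Zbtb20 and Arid3b windows held 0 copies of these letters, with a GC content of 53.6% and 51.2% in the Zbtb32 windows and 44.8% in the Zbtb20 window. Of 32851 windows of this length, from 27025 genes, 1978 (6.02%) held the E-box, and a match is a description of the sequence only.

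Of the 7 members, 3 passed the test at an adjusted p of 0.05 (edgeR's quasi-likelihood test, adjusted by the Benjamini-Hochberg method over all tested genes), and all 3 were higher in B1a cells. Bhlhe41, Zbtb32 and Zbtb20 were the members that rose, by 16.1-fold, 87.5-fold and 3.77-fold in mean CPM. Among all 12078 tested genes, 5.74% passed the test in either direction, 4.24% higher in B1a and 1.5% higher in B2. The libraries of the groups did not overlap for 5 members, 4 of them higher in B1a and 1 higher in B2, and the same was true of 54.3% of all tested genes. The median log2 fold change of the members was 0.89 and that of all tested genes was -0.03. All 7 members passed the filter on low counts.

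**Figure D1:**
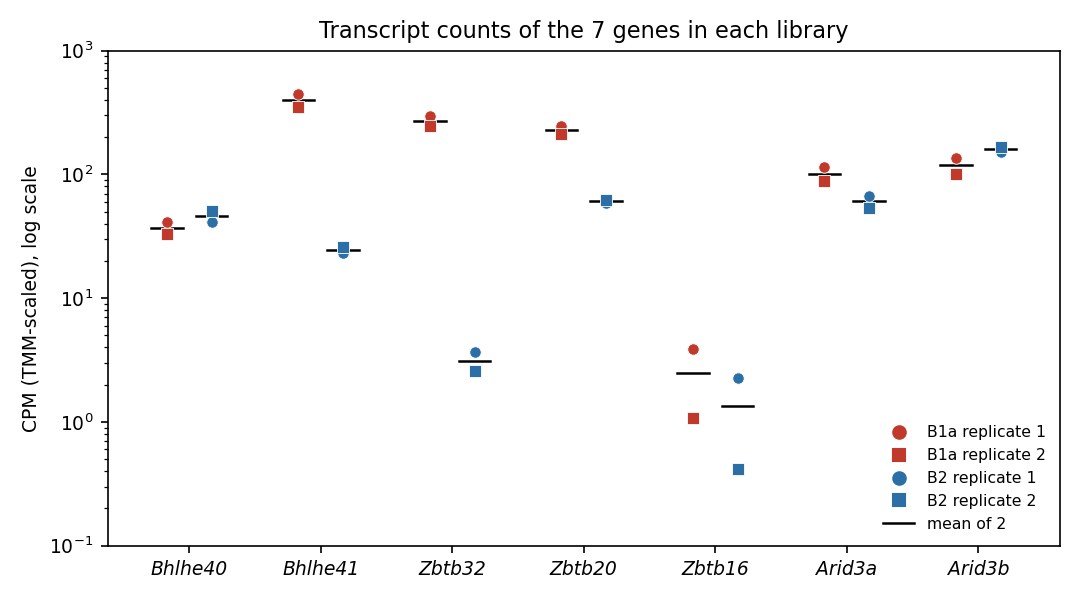
CPM on a log axis for each of the 7 members in each of the 4 libraries, with circles and squares for replicates 1 and 2 and lines for group means of B1a and B2 cells. Zbtb32, Bhlhe41 and Zbtb20 separate the cell types widely, while the libraries of Bhlhe40 and Zbtb16 overlap between the groups.

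The paralogs Bhlhe41 and Bhlhe40 differed in their response. Bhlhe41 (chromosome 6, 145858243 to 145865420, reverse strand) was measured at 443 and 349.9 CPM in the B1a libraries and at 23.3 and 25.9 CPM in the B2 libraries. Both B1a libraries lay far above both B2 libraries, with group means of 397 ± 66.1 and 24.6 ± 1.80 CPM (SD, n = 2). The log2 fold change was 4.01 with a standard error of 0.19 and a 95% interval of 3.54 to 4.47 (edgeR adjusted p = 0.000683), and Bhlhe41 ranked 15 by p-value among the tested genes. The values rest on at least 269 counts in each library.

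Bhlhe40 (chromosome 6, 108660629 to 108666925, forward strand) was measured at 41.4 and 32.7 CPM in B1a and at 41.1 and 50.6 CPM in B2. The groups overlapped narrowly, since the higher B1a library was just above the lower B2 library. The log2 fold change was -0.31 with a 95% interval of -1.0 to 0.39 (edgeR adjusted p = 0.625). As a fold of B1a over B2, the interval ran from 0.500 to 1.31.

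By TPM, which divides counts by transcript length and lets genes be compared with each other, Bhlhe41 stood 5.39 and 5.46 times above Bhlhe40 in the B1a libraries. In the B2 libraries the order was turned, and Bhlhe40 stood 3.50 and 3.81 times above Bhlhe41. Bhlhe41 thus made up 84.4% and 84.5% of the summed TPM of the pair in B1a and 22.2% and 20.8% in B2. The summed TPM of the pair was 201 and 157 in B1a and 47.2 and 56.2 in B2, so the pair as a whole was higher in B1a. The log2 ratio of Bhlhe41 to Bhlhe40 differed by 4.31 between the cell types, a 19.8-fold difference in the ratio (two-sided exact permutation p = 0.333, the smallest value that 2 libraries against 2 can give).

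**Figure D2:**
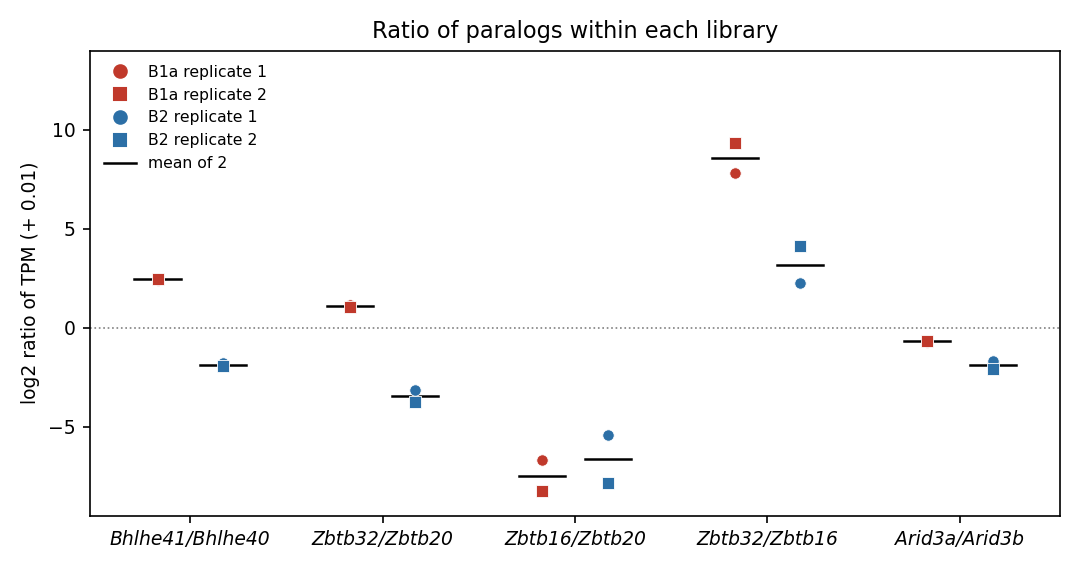
Log2 ratio of TPM within each pair of related members (plus 0.01) in each library, with B1a cells in red, B2 cells in blue and lines for group means. The ratios of Bhlhe41 to Bhlhe40 and of Zbtb32 to Zbtb20 change sign between the cell types, while Arid3a stays below Arid3b in every library.

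Peritoneal macrophages are also known to express Bhlhe40 and Bhlhe41, and markers of macrophages were therefore read beside these values. The 9 macrophage markers summed to 199 and 226.5 CPM in B1a and 56.5 and 67.2 CPM in B2, and 1 of the 6 that could be tested, the lysozyme gene Lyz2, rose in B1a (edgeR log2 fold change 2.57, adjusted p = 0.00765). Of these 6, 5 had a log2 fold change above 0, with a median of 1.85. Emr1, which encodes F4/80, was at 27.7 and 39.0 CPM in B1a and 8.24 and 11.9 CPM in B2, the complement gene C1qa at 24.4 and 17.5 CPM against 4.60 and 6.06 CPM, and Cd14 at 1.70 and 2.79 CPM against 0.434 and 0 CPM. Both B1a libraries were above both B2 libraries for these 3 genes, none of which passed the test. Gata6, the defining factor of resident peritoneal macrophages, had 0 and 1 counts in the B1a libraries, Fcgr1 had 0 in both, and Timd4 had 0 and 6. Csf1r, the receptor on which macrophages depend, was at 16.9 and 21.9 CPM in B1a and 21.2 and 18.4 CPM in B2. The part of macrophage RNA in the Bhlhe41 difference was not tested.

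Zbtb32 showed the widest difference of the 7 members. This BTB zinc finger repressor, known from activated lymphocytes and as a brake on recall responses of memory B cells, lies on chromosome 7 from 30589680 to 30602819 on the reverse strand. It was measured at 298 and 245 CPM in B1a and at 3.64 and 2.56 CPM in B2. Both B1a libraries stood far above both B2 libraries, with group means of 271 ± 36.8 and 3.10 ± 0.77 CPM (SD, n = 2). The B2 values rest on 42 and 49 counts, both above the floor. The log2 fold change was 6.47 with a standard error of 0.27 and a 95% interval of 5.82 to 7.13 (edgeR adjusted p = 0.00054), the rank by p-value among all tested genes was 7, and the rank by log2 fold change was 52.

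Zbtb20, a widely expressed ZBTB repressor that is known to support long-lived plasma cells, spans 758704 bases of chromosome 16, from 42875689 to 43634392 on the forward strand. It was measured at 246 and 212 CPM in B1a and at 58.9 and 62.6 CPM in B2. The groups were well apart, and the replicates of both groups were closer to each other than those of most genes, at percentiles 24.4 and 22.6 of the replicate differences of all tested genes. B1a exceeded B2 by a log2 fold change of 1.91 with a standard error of 0.16 and a 95% interval of 1.51 to 2.32 (edgeR adjusted p = 0.00362). The annotation places 9 other genes within or across Zbtb20, 4 of them on the opposite strand, and the strand setting used in counting is not given in the sources used here. Bhlhe40, Bhlhe41 and Arid3b each overlap 1 gene on the opposite strand, so the same limit holds for them.

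Zbtb16, which encodes PLZF, the factor that directs innate-like T lymphocytes such as NKT cells, was the lowest member in both cell types. It lies on chromosome 9 from 48651797 to 48836225 on the reverse strand and was measured at 3.85 and 1.08 CPM in B1a and at 2.26 and 0.418 CPM in B2. The libraries of the groups overlapped, and the spread between replicates was wide, at percentiles 81.7 and 97.9 of the replicate differences of all tested genes. The log2 fold change was 0.89 with a 95% interval of -2.96 to 4.74 (edgeR adjusted p = 0.827), which leaves both a rise and a fall possible. The values rest on 42.8, 12.3, 26.1 and 7.76 counts, for which the deposited posterior standard deviations were between 1.29 and 4.20 counts. Without B1a replicate 1 the log2 fold change was -0.29 instead of 0.89.

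The 8 markers of T and NKT cells summed to 108 and 68.8 CPM in B1a and 85.5 and 84.2 CPM in B2. Above 3 counts in both libraries were 4 of the 8 in B1a and 8 of the 8 in B2. In B1a, Lck was at 56.47 and 45.15 CPM, Cd3d at 14.61 and 18.26 CPM and Cd8a at 23.84 and 4.317 CPM. Cd3e was at 2.6 and 0.8993 CPM in B1a and Cd3g at 10.4 and 0.1799 CPM. Cd4, Cd28 and Klrb1c were at 0 in both B1a libraries. Zbtb16 counts were present in the libraries of both groups, and the part of T cell RNA in these counts was not tested.

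Within a library, the ratio of Zbtb32 to Zbtb20 also turned between the cell types. By TPM, Zbtb32 stood 2.18 and 2.09 times above Zbtb20 in B1a, while Zbtb20 stood 8.94 and 13.3 times above Zbtb32 in B2. The log2 ratio differed by 4.54 between the groups, and the smallest p that the design allows was reached (two-sided exact permutation p = 0.333). Zbtb16 was below Zbtb20 in every library, with log2 TPM ratios of -6.71 and -8.25 in B1a and -5.40 and -7.87 in B2, and these ranges overlapped (exact permutation p = 0.667). The log2 ratio of Zbtb32 to Zbtb16 was 7.83 and 9.32 in B1a and 2.24 and 4.13 in B2.

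The ARID3 paralogs leaned in opposite directions, and neither passed the test. Arid3a (chromosome 10, 79927043 to 79955018, forward strand) was measured at 114 and 89.0 CPM in B1a and at 67.3 and 53.9 CPM in B2. Both B1a libraries were above both B2 libraries, with group means of 102 ± 17.8 and 60.6 ± 9.49 CPM (SD, n = 2). B1a exceeded B2 by 0.75 on the log2 scale with a standard error of 0.23 and a 95% interval of 0.18 to 1.32 (edgeR adjusted p = 0.146). With 1 library left out, the adjusted p was 0.0276 without B1a replicate 1 and 2.2e-05 without B1a replicate 2, fits in which the B2 pair alone gives the spread. It was 0.4803 without B2 replicate 1 and 0.9999 without B2 replicate 2.

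Arid3b (chromosome 9, 57790353 to 57836847, reverse strand) was measured at 135 and 102 CPM in B1a and at 153 and 167 CPM in B2. Both B2 libraries were above both B1a libraries, by a margin smaller than the gap between the B1a replicates. The log2 fold change was -0.43 with a 95% interval of -0.90 to 0.04 (edgeR adjusted p = 0.274), and without B1a replicate 1 it was -0.66 (adjusted p = 0.000935). The other 3 fits that leave out 1 library gave -0.25 without B1a replicate 2 (edgeR adjusted p = 0.202), -0.50 without B2 replicate 1 (adjusted p = 0.883) and -0.38 without B2 replicate 2 (adjusted p = 0.9999).

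By TPM, Arid3b stood above Arid3a in all 4 libraries, 1.65 and 1.58 times in B1a and 3.16 and 4.25 times in B2. Arid3a made up 37.7% and 38.8% of the summed TPM of the pair in B1a and 24.0% and 19.03% in B2. The summed TPM was 134 and 100.2 in B1a and 146 and 147 in B2. On log2(TPM + 1), log2 fold changes of all genes were shifted by a median of -0.25 from the TMM-scaled fit. The difference of these sums between the groups therefore depends on the scaling. The log2 ratio of Arid3a to Arid3b was higher in B1a by 1.18, a 2.27-fold difference in the ratio, and the libraries of the groups did not overlap (two-sided exact permutation p = 0.333, the smallest possible).

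**Figure D3:**
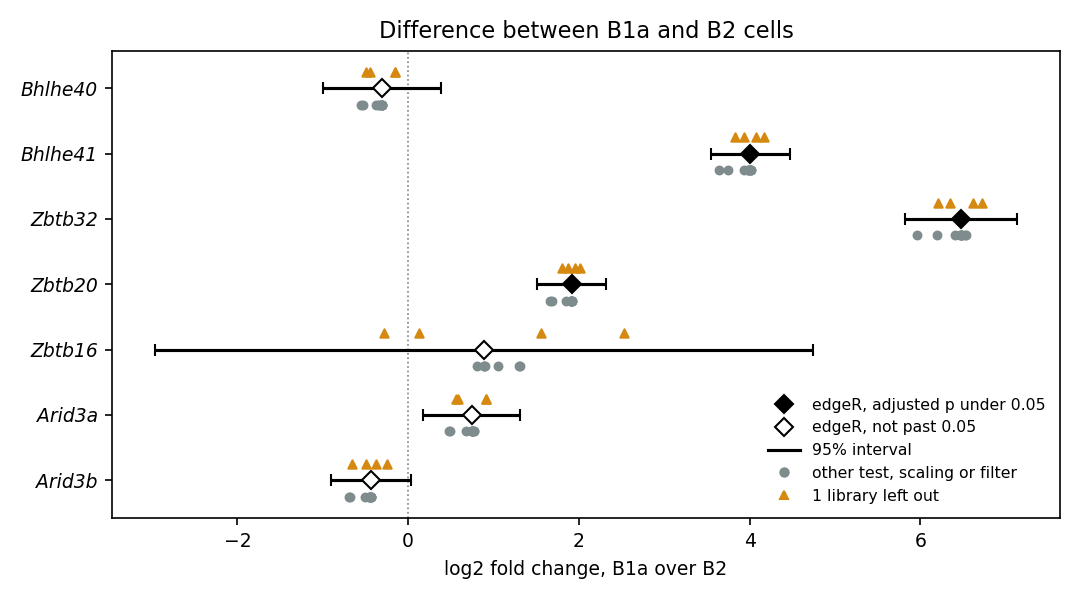
Log2 fold change of B1a over B2 cells for each member, with 95% intervals from the edgeR quasi-likelihood test (n = 2 libraries per group). Gray dots are other tests, scalings or filters and triangles are fits with 1 library left out. The intervals of Zbtb32, Bhlhe41 and Zbtb20 lie well above 0, that of Arid3a lies just above 0 without passing the adjusted threshold, and that of Zbtb16 is the widest.

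In order of level, by mean TPM, the B1a cells had Zbtb32 at 364 ± 55.8, Zbtb20 at 170.2 ± 21.0 and Bhlhe41 at 151 ± 26.2 (SD, n = 2), followed by Arid3b at 72.4 ± 15.6, Arid3a at 44.7 ± 8.24, Bhlhe40 at 27.9 ± 5.09 and Zbtb16 at 1.13 ± 0.89. Zbtb20 and Bhlhe41 were the only neighbors in this order whose replicate ranges overlapped. In the B2 cells the order began with Arid3b at 115 ± 5.85 TPM and went on with Zbtb20 at 52.9 ± 1.202, Bhlhe40 at 40.6 ± 5.50, Arid3a at 31.6 ± 5.02, Bhlhe41 at 11.1 ± 0.83, Zbtb32 at 4.92 ± 1.27 and Zbtb16 at 0.72 ± 0.71, and no neighbors overlapped. Zbtb32 thus moved from position 1 in B1a to position 6 in B2, at the 98.3 and the 51.1 percentile of all gene symbols by mean TPM. Arid3b moved from position 4 to position 1, and Zbtb16 was last in both.

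**Figure D4:**
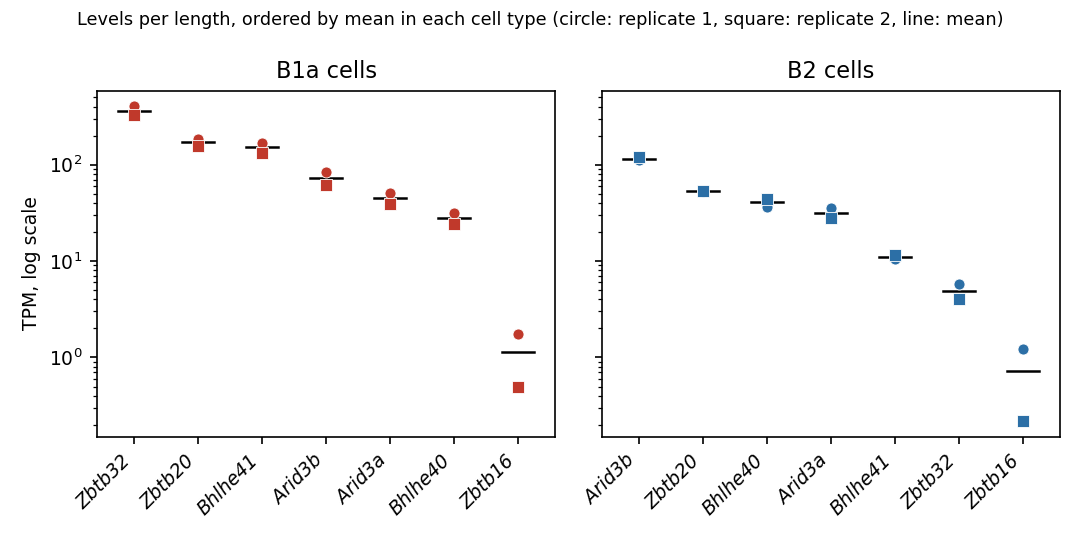
Mean TPM on a log axis for the 7 members, ordered by level within B1a and within B2 cells, with a circle and a square for the 2 libraries of each cell type and a line for their mean. Zbtb32 leads in B1a cells and is next to last in B2 cells, while Arid3b leads in B2 cells.

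In B1a cells, replicate 1 had more CPM than replicate 2 for all 7 members. For Bhlhe40, Bhlhe41, Zbtb32, Zbtb20, Arid3a and Arid3b the log2 difference between the B1a replicates was between 0.22 and 0.41, below the median absolute difference of all tested genes. For Zbtb16 it was 1.70.

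The tested genes whose pattern over the 4 libraries was nearest to that of a member, by Euclidean distance between centered log2 CPM values, are given as a description of these libraries. Nearest to Bhlhe41 was Ypel2, at 207 and 163 CPM in B1a and 10.1 and 12.2 CPM in B2 (distance 0.10), followed by Sspn and by Nt5e, which encodes the ectonucleotidase CD73. Nearest to Zbtb32 was S100a6, a calcium-binding protein gene, at 266 and 245 CPM in B1a and 3.04 and 2.14 CPM in B2 (distance 0.20). It was followed by Etl4 and, farther off, by Retnla (distance 0.49). Retnla was at 14.8 and 15.4 CPM in B1a and at 0 in both B2 libraries. Nearest to Zbtb20 were Best1, Fgd2 and Serpina3g. Best1 was low, at 5.83 and 4.86 CPM in B1a and 1.30 and 1.46 CPM in B2, and did not pass the test (edgeR adjusted p = 0.431). Fgd2 was at 662 and 523 CPM in B1a and 155 and 177 CPM in B2.

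Among members that did not pass the test, Arid3a was nearest to Alg5, Npc1 and Dopey2, Arid3b to Spop, Plgrkt and Ubn1, and Bhlhe40 to Rbm14, Ksr1 and Sdc3, at distances between 0.02 and 0.08. Gins1, Rnase4 and Tagap1, the genes nearest to Zbtb16, lay at distances between 0.50 and 0.56, close to that of Retnla from Zbtb32 (0.49). With 4 libraries a small distance is a likeness of pattern only.

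Among relatives and partners of the members, the counts are to be set beside the 5.74% of all tested genes that passed. Of 44 tested genes of the ZBTB family outside the members, 1 rose and 1 fell in B1a, 17 had a log2 fold change above 0, and the median was -0.22. The gene that rose was Zbtb38, which encodes a zinc finger protein that binds methylated DNA, at 206 and 178 CPM in B1a and 65.1 and 53.5 CPM in B2 (log2 fold change 1.70, edgeR adjusted p = 0.00703). The gene that fell was Bcl6, the master regulator of germinal center B cells, at 43.8 and 15.9 CPM in B1a and 143 and 159 CPM in B2 (log2 fold change -2.34, edgeR adjusted p = 0.0469).

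Of 12 tested ARID genes outside the members, 1 passed the test, lower in B1a, and the median log2 fold change was -0.28. Arid1a, a subunit of the SWI/SNF chromatin remodeling complex, fell from 1023 ± 13.8 CPM in B2 to 575 ± 8.93 CPM in B1a (log2 fold change -0.83, edgeR adjusted p = 0.00945). Arid3c, the remaining ARID3 paralog, had 0 counts in all 4 libraries, which allows up to 3 counts in each. Of the 10 other genes of the helix-loop-helix Orange class, Hes1, Hes5 and Hes6 could be tested and 0 passed by edgeR, with 1 at an unadjusted p under 0.05 and 1 passing by DESeq2. Hes1, a Notch target, was at 5.56 and 0.899 CPM in B1a and 22.9 and 20.8 CPM in B2 (edgeR adjusted p = 0.169).

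Genes of the circadian feedback loop on which BHLHE40 and BHLHE41 act were read in the same way. Of 14 tested clock genes, 2 passed the test, both higher in B1a. The log2 fold change was above 0 for 10 of the 14, with a median of 0.55 against -0.03 for all tested genes. Nfil3, a bZIP repressor of clock output, was at 59.9 and 14.2 CPM in B1a and at 0.607 and 0.471 CPM in B2, so the B1a replicates were far apart and both were above B2 (log2 fold change 6.10, edgeR adjusted p = 0.0195). Per1, a core repressor of the clock, was at 170 and 175 CPM in B1a and 93.6 and 69.0 CPM in B2 (log2 fold change 1.09, edgeR adjusted p = 0.0356). Clock and Arntl, which encode the activators, did not pass the test.

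The 13 corepressor genes, which include the NCOR and SIN3 scaffolds and the class I histone deacetylases that BTB domains recruit, were all tested, and 0 of them passed by edgeR or DESeq2, with 2 at an unadjusted p under 0.05 by edgeR. Their log2 fold changes were above 0 for 3 genes and had a median of -0.26. Ncor1, the scaffold with the most counts, was at 624 and 595 CPM in B1a and 641 and 694 CPM in B2.

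The LIN28 and let-7 axis is known upstream of Arid3a in fetal B lymphopoiesis. Of its 6 tested genes, 1 passed the test, higher in B1a, and the median log2 fold change was -0.32. The gene that rose was Hmga2, a chromatin protein gene repressed by let-7, at 43.3 and 35.2 CPM in B1a and 6.07 and 6.85 CPM in B2 (log2 fold change 2.60, edgeR adjusted p = 0.0193). Lin28b had 0 counts in all 4 libraries, which allows up to 3 counts in each, and Lin28a had 3 counts in 1 B2 library and 0 elsewhere. Igf2bp3, a further target of the axis, was at 9.05 and 6.21 CPM in B1a and 21.9 and 32.2 CPM in B2 and did not pass the test (edgeR adjusted p = 0.107).

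Among 8 regulators of plasma cell fate and of class II antigen presentation, all tested, 1 rose and 4 fell in B1a, with a median log2 fold change of -0.56. Prdm1, the driver of plasma cell differentiation, was at 22.4 and 36.2 CPM in B1a and 4.16 and 4.13 CPM in B2 (log2 fold change 2.82, edgeR adjusted p = 0.0346). Bach2, a repressor of Prdm1, fell by 2.07 on the log2 scale from 736 ± 11.1 CPM in B2 to 175 ± 7.38 CPM in B1a (edgeR adjusted p = 0.0013). Ciita, the transactivator of MHC class II genes, was at 387 and 311 CPM in B1a and 1111 and 943 CPM in B2 (log2 fold change -1.56, edgeR adjusted p = 0.00535). Pax5, which keeps B cell identity, fell by 0.90 on the log2 scale (edgeR adjusted p = 0.01003), and Bcl6 is also on this list.

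Of 10 genes of the innate-like lymphocyte program with which PLZF is associated, 6 were tested and 1 passed, lower in B1a. The median log2 fold change was -2.57, or -1.51 with Klrb1c, which was at 0 in both B1a libraries, set at the bound that 3 counts in each library give. Slamf1, a receptor of the SLAM family, fell from 62.4 ± 12.3 CPM in B2 to 3.01 ± 1.09 CPM in B1a (log2 fold change -4.37, edgeR adjusted p = 0.0050). Il4 had 0 counts in all 4 libraries, and Icos had 0 in both B1a libraries. Klrb1c is also one of the 8 markers of T and NKT cells. Of those, Cd4 and Cd28 were likewise at 0 in both B1a libraries and above the floor in both B2 libraries, while 3 of the 8 had a log2 fold change above 0. The part of T cell RNA in these values was not tested.

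**Figure D5:**
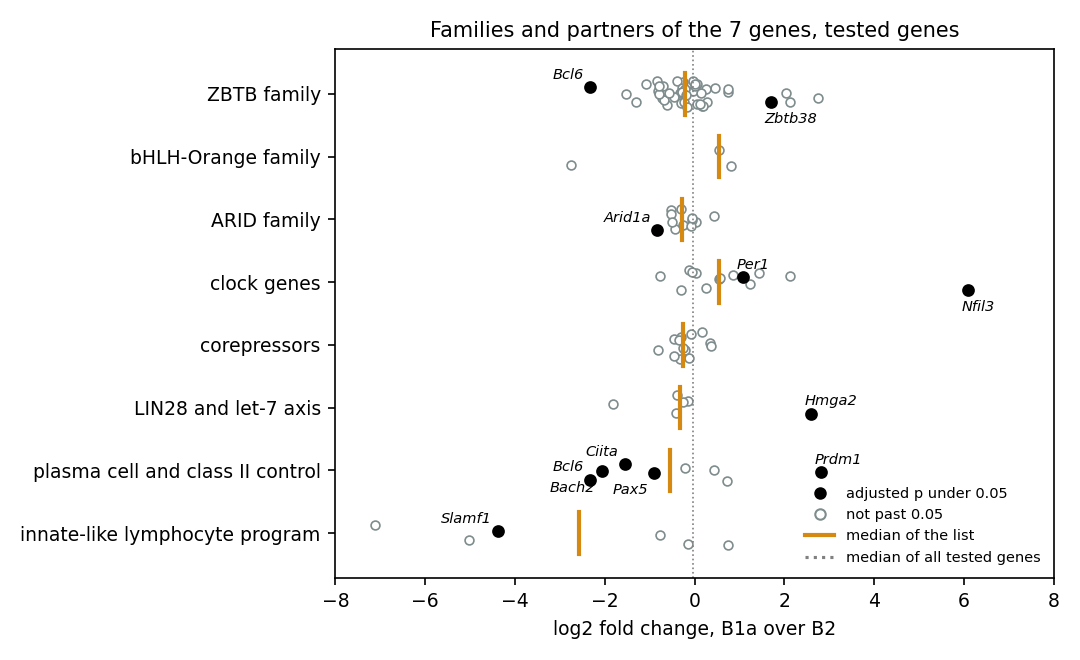
Log2 fold change of B1a over B2 cells for each tested gene of 8 lists of relatives and partners of the 7 members, with filled points for genes that passed the edgeR test, orange bars for list medians and a dotted line for the median of all tested genes. Nfil3 has the highest value, Zbtb38 is the filled ZBTB point above 0, and Bcl6 and Arid1a lie below it.

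Markers of further cell types were read in the same libraries. Mast cell markers summed to 40.2 and 13.0 CPM in B1a against 1.48 and 0.941 CPM in B2, and erythroid markers to 78.8 and 504 CPM in B1a against 36.1 and 80.8 CPM in B2. In each of these lists 1 gene passed the test, higher in B1a. The mast cell protease gene Cma1 was at 22.0 and 4.68 CPM in B1a and at 0 in both B2 libraries (edgeR adjusted p = 0.0499), and the globin gene Hba-a2 was at 35.6 and 96.6 CPM in B1a and 5.03 and 7.48 CPM in B2 (log2 fold change 3.39, edgeR adjusted p = 0.0278). Plasma cell markers summed to 82.8 and 109 CPM in B1a and 80.4 and 110.5 CPM in B2, but they did not move together. Of the 4 that were tested, only Prdm1 had a log2 fold change above 0, and it passed the test. Sdc1 was at 0 and 8.27 CPM in B1a and 13.45 and 25.25 CPM in B2, and Xbp1 at 60.2 and 58.7 CPM against 59.3 and 78.6 CPM. Dendritic cell markers summed to 16.5 and 32.3 CPM against 46.2 and 34.2 CPM, and neutrophil markers to at most 10.9 CPM in any library. The 3 mesothelial markers were at 0 counts in both B1a libraries. The part of these cells in the member differences was not tested.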

How the data were processed

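RNA-Seq libraries of wild-type B1a cells (n = 2) and B2 cells (n = 2) were grouped by their titles. The authors aligned reads to mm10 (GRCm38) and quantified RefSeq genes with RSEM (version 1.2.29 per the submitters' processing notes, which also name bcl2fastq, while the methods name a different version). The deposited expected counts are not normalized, and RSEM shares a read that matches several entries among those entries. TPM was deposited by the authors too, whose sums were checked to be close to equal over the libraries, and a signal value, the posterior standard deviation of each count, which was read for the members. FPKM and the posterior means were not used. The libraries were stranded, and the strand setting of the counting is not given in the sources used here.

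The expected counts of a symbol's entries were added up and rounded. After filterByExpr and TMM scaling, cell types were compared with edgeR 4.0.16 (R 4.3.3, quasi-likelihood, cell type as the only term), with Benjamini-Hochberg adjustment over 12078 genes and a threshold of 0.05. The common biological coefficient of variation was 0.507. EBSeq, named in the methods, was not run. Standard errors come from the F statistic. The 95% intervals use the total degrees of freedom of the test, the residual ones plus those that edgeR borrows across genes. The methods state separate mice for the libraries, and p-values measure the spread between these libraries. Ratios between paralogs were log2 ratios of TPM + 0.01 in each library, with exact permutation tests (scipy 1.17.1, Python 3.11.15). Entries with read sharing are uncertain. Alternatives were DESeq2 1.42.0, limma-voom (limma 3.58.1, also with weights by cell type), upper quartile factors, no filter beyond 1 count, a minimum of 10 counts per library in all 4, limma fits of log2(TPM + 1) and log2(TPM + 0.1) for a mean TPM of at least 1, entries not summed, a replicate block and each replicate left out. The fits were tested on simulated data.

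The members and lists were chosen with earlier results of these data known, so no list is independent evidence. All 7 members are given in full. From each list, called genes (up to 4, by size of change) and Arid3c, Bcl6, Lin28b, Per1, Prdm1 and Ciita are named, and the 3 nearest genes of each member. Hes1, Ncor1, Igf2bp3, Lin28a, Clock, Arntl, Il4, Klrb1c and Icos were named after their values were seen. So were the markers Cd79a, Emr1, C1qa, Cd14, Lck, Cd3d, Cd3e, Cd3g, Cd8a, Sdc1, Xbp1, Cma1 and Hba-a2. Zbtb8os, an opposite-strand gene, was left out of the ZBTB family, and Adgre1 and Jchain are listed under the older symbols Emr1 and Igj. Positions are from RefSeq GRCm38.p6. A further B cell marker is not reported here.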

Additional observations from a re-analysis of the deposited data

How the results depend on the processing

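Bhlhe41, Zbtb32 and Zbtb20 passed the test in 10 of 10 alternatives with all 4 libraries and in 4 of 4 fits without 1 library, with log2 fold changes of 3.65 to 4.17, 5.96 to 6.72 and 1.66 to 2.02. Bhlhe40 and Zbtb16 passed in none of theirs. Arid3a passed with limma-voom and a weight for each cell type (0.78, adjusted p = 0.0397). Leaving out 1 library at a time, in which the lone library of a group is assumed to vary like the other group, gave 0.56 to 0.92 for Arid3a, -0.66 to -0.25 for Arid3b, -0.29 to 2.53 for Zbtb16, -2.08 to 0.39 for the log2 ratio of Zbtb16 to Zbtb20, 3 to 5 members called, 0 to 1 of them higher in B2, and 539 to 6143 genes called, 394 to 2787 higher in B1a and 144 to 3356 higher in B2. The highest counts came without B1a replicate 2 and the next without B1a replicate 1 (3953).

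The number of genes called was 1562 with DESeq2 (1011 higher in B1a, 551 in B2), 1415 with weighted limma-voom (1054 and 361), 1141 with no filter beyond 1 count (779 and 362) and 359 on log2(TPM + 0.1) (196 and 163). On log2(TPM + 1) it was 499, of which 266 (53.3%) were higher in B1a, and the median of all genes was shifted by -0.25. Those higher in B2 were 278 with limma-voom and 279 with at least 10 counts. Called in the lists were, for clock genes, 1 with limma-voom and 0 on log2(TPM + 1), for the LIN28 axis 2 with DESeq2 and 0 on log2(TPM + 1), for plasma cell and class II control 3 on log2(TPM + 1), for the innate-like program 2 with DESeq2, for the ZBTB family 4 with DESeq2 and 1 on log2(TPM + 1), for the Orange class 1 with DESeq2, and for the ARID family 3 with DESeq2 and 2 with limma-voom or no filter. Zbtb16 had no value in the TPM fits and with at least 10 counts. The causes of these changes were not tested.

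Replicate numbers are not stated to pair the samples, and the deviations of same-numbered libraries had r = -0.035 over 12078 genes. With a replicate block 1481 genes were called (889 higher in B1a, 592 in B2), and no call of a member changed.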
